A study of Rattus norvegicus with 65 samples.

Results

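The genes described here are the heat shock transcription factor Hsf1 and a set of chaperones of the cytosol and of mitochondria, chosen by name, with earlier results of these data known. Of the 10 genes listed (Hsf1, Hspa1b, Hspa8, Hsp90aa1, Hsp90ab1, Hsph1, Dnajb1, Hspd1, Hspe1 and Hspa9), 9 have a row among the 14554 genes of the count table. Hspe1 has no row and was not analysed here. All 9 were counted in every library, and the smallest count of any of them was 127, so the filter on low counts used here removed none of these 9. Whether Hspe1 was lost when the authors removed genes low in all samples cannot be told from the counts.

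Transcripts were counted by RNA sequencing in 65 libraries from primary neonatal rat cardiomyocytes, which are heart muscle cells cultured from newborn rats. The cells received 5-fluorouracil (5FU, 10 mM), acetaminophen (Ace, 2.5 mM) or doxorubicin (Dox, 1.25 µM) for 6 or 24 hours. The solvent was DMSO, so 5FU was compared with DMSO1, wells with 1% DMSO, and Ace and Dox with DMSO2, wells with 0.25% DMSO, at the same time point. Each group holds 7 libraries in Dox and DMSO2 and 6 in 5FU and DMSO1 at either time point, and Ace has 6 at 6 hours and 7 at 24 hours. Per the study's methods, cells from several litters were combined and then plated. The libraries of a group are therefore parallel cultures of a shared preparation, and the p-values measure the spread between cultures and not between animals.

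Hsf1 is the main activator of the heat shock response. In unstressed cells it is held inactive, in part by chaperones. When unfolded proteins occupy those chaperones, it forms trimers, binds heat shock elements in DNA and raises transcription of chaperone genes. A heat shock element is a run of GAA units in alternating orientation. Hsp70 proteins (Hspa1b, Hspa8) bind unfolded stretches of protein with the help of J-domain proteins (Dnajb1) and of the nucleotide exchange factor Hsph1, and pass some clients to Hsp90 (Hsp90aa1, Hsp90ab1). In mitochondria Hspa9 pulls in and folds imported proteins, and Hspd1 and Hspe1 form the chaperonin, a barrel with a lid in which proteins fold. In heart muscle these proteins are known for protection from heat, ischemia and oxidative stress.

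The start regions of the members are shown first because heat shock elements lie there. RefSeq windows from 250 bases before to 50 after an annotated start (build GRCr8) were available for 7 of the 10 members and not used here for Hsf1, Hspa1b and Hsp90aa1. For Hspa8, Hsph1, Dnajb1 and Hspe1 that start is the outer end of the annotated gene, whereas for Hsp90ab1, Hspd1 and Hspa9 it lies 174, 295 and 4560 bases inside the gene. The windows of Hspd1 and Hspa9 thus lie wholly inside the gene. The windows were searched for the 2-unit motifs GAANNTTC and TTCNNGAA and for the 3-unit motifs GAANNTTCNNGAA and TTCNNGAANNTTC. Each 2-unit motif reads the same on both strands, the 3-unit motifs are each other's complement, and matches may overlap. A 2-unit motif was found in 6 of the 7 windows, the exception being Hsp90ab1, against 15.9% of 33469 rat promoter windows of the same length. A 3-unit motif was found in 4, namely Hspa8, Hsph1, Hspd1 and Hspe1, against 0.798% of all windows. The 250 bases before the start are printed 5′ to 3′ for Hspa8 and Hsph1, and for Hspd1, Hspe1 and Dnajb1 the match nearest to the start with 4 bases on each side, with the motif letters in capitals.
Hspa8, chr8:50080264-50080513, + strand: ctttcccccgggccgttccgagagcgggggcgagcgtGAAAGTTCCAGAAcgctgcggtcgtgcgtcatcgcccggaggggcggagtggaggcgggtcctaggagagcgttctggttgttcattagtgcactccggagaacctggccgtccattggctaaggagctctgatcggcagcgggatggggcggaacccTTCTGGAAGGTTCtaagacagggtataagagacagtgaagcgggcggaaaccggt
Hsph1, chr12:10427118-10427367, + strand: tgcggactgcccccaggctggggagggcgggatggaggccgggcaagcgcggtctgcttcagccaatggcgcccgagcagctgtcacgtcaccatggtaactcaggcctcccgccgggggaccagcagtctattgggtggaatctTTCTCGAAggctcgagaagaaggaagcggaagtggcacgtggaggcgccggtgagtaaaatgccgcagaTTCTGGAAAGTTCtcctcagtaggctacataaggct
Hspd1, chr9:64084258-64084283, - strand: ggccTTCCGGAAGGTTCTAGAAccga
Hspe1, chr9:64084258-64084283, + strand: tcggTTCTAGAACCTTCCGGAAggcc
Dnajb1, chr19:41431141-41431156, - strand: ggcgGAAGGTTCtgga
Hspa8 held 3-unit matches 43 to 55 and 201 to 213 bases before its start, and the 3-unit match of Hsph1 lay 24 to 36 bases before it. Hspd1 and Hspe1, the barrel and the lid of the chaperonin, are neighbours that are read away from each other, and the match of 18 bases in capitals is the same stretch of DNA read from either strand. It lay 48 to 65 bases before the start of Hspe1 and 225 to 242 before the start used for Hspd1, which puts it 53 to 70 bases inside the annotated Hspd1 gene. Dnajb1 held a 2-unit match 4 to 11 bases before its start and another 18 to 25 after it, and Hspa9 held 2-unit matches 77 to 84 before and 18 to 25 after the start used. A match describes these letters only and is not evidence of binding.

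Library totals ran from 14332827 to 25738297 counts. Levels are given as CPM, the count per fixed number of counts in the library, after scaling of the library totals with TMM factors, which ran from 0.859 to 1.07. CPM does not correct for transcript length, so levels are compared between groups and not between genes. No pair of libraries of a group differed by as little as sampling would give (smallest chi-square per gene 2.84 in 180 pairs, against 1 from sampling alone), so none was treated as a copy of another. Differences were tested with edgeR's quasi-likelihood test in 1 model of all 10 groups, and a gene is called higher or lower at a false discovery rate (FDR) below 0.01 over all 14554 genes.

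In the comparison of each drug with its own control, the members changed most often in Dox. At 6 hours 8 of the 9 members passed the test in Dox, 7 higher and 1 lower, where 64.2% of all genes passed (31.5% higher, 32.7% lower). At 24 hours 8 of 9 passed, 6 higher and 2 lower, against 81.4% of all genes (40.4% higher, 41% lower), so the share of members called was near that of all genes. In 5FU 5 of 9 passed at 6 hours, 2 higher and 3 lower (47.9% of all genes, 23.4% higher and 24.5% lower), and 6 of 9 at 24 hours, 5 higher and 1 lower (55.8%, 28% higher and 27.8% lower). In Ace 2 of 9 passed at 6 hours, both higher (31.7% of all genes, 16.5% higher and 15.2% lower), and 4 of 9 at 24 hours, 3 higher and 1 lower (37.2%, 18.2% higher and 19.1% lower). The count depended on the scaling. With scaling by library size alone 5 members passed in Dox at 6 hours. The median of all genes in that comparison was then -0.15 on the log2 scale. The same scaling gave 6 members in Ace at 24 hours and 4 in 5FU at 6 hours. The median member stood at a log2 fold change of 0.29 at 6 and 0.35 at 24 hours in Dox. It was 0.10 and 0.21 in 5FU and 0.04 and 0.11 in Ace. The median of all genes lay between -0.009 and 0.003, as the scaling used here brings it near 0. With library size alone it ran from -0.15 in Dox at 6 hours to 0.056 in Ace at 24 hours.

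**Figure D1:**
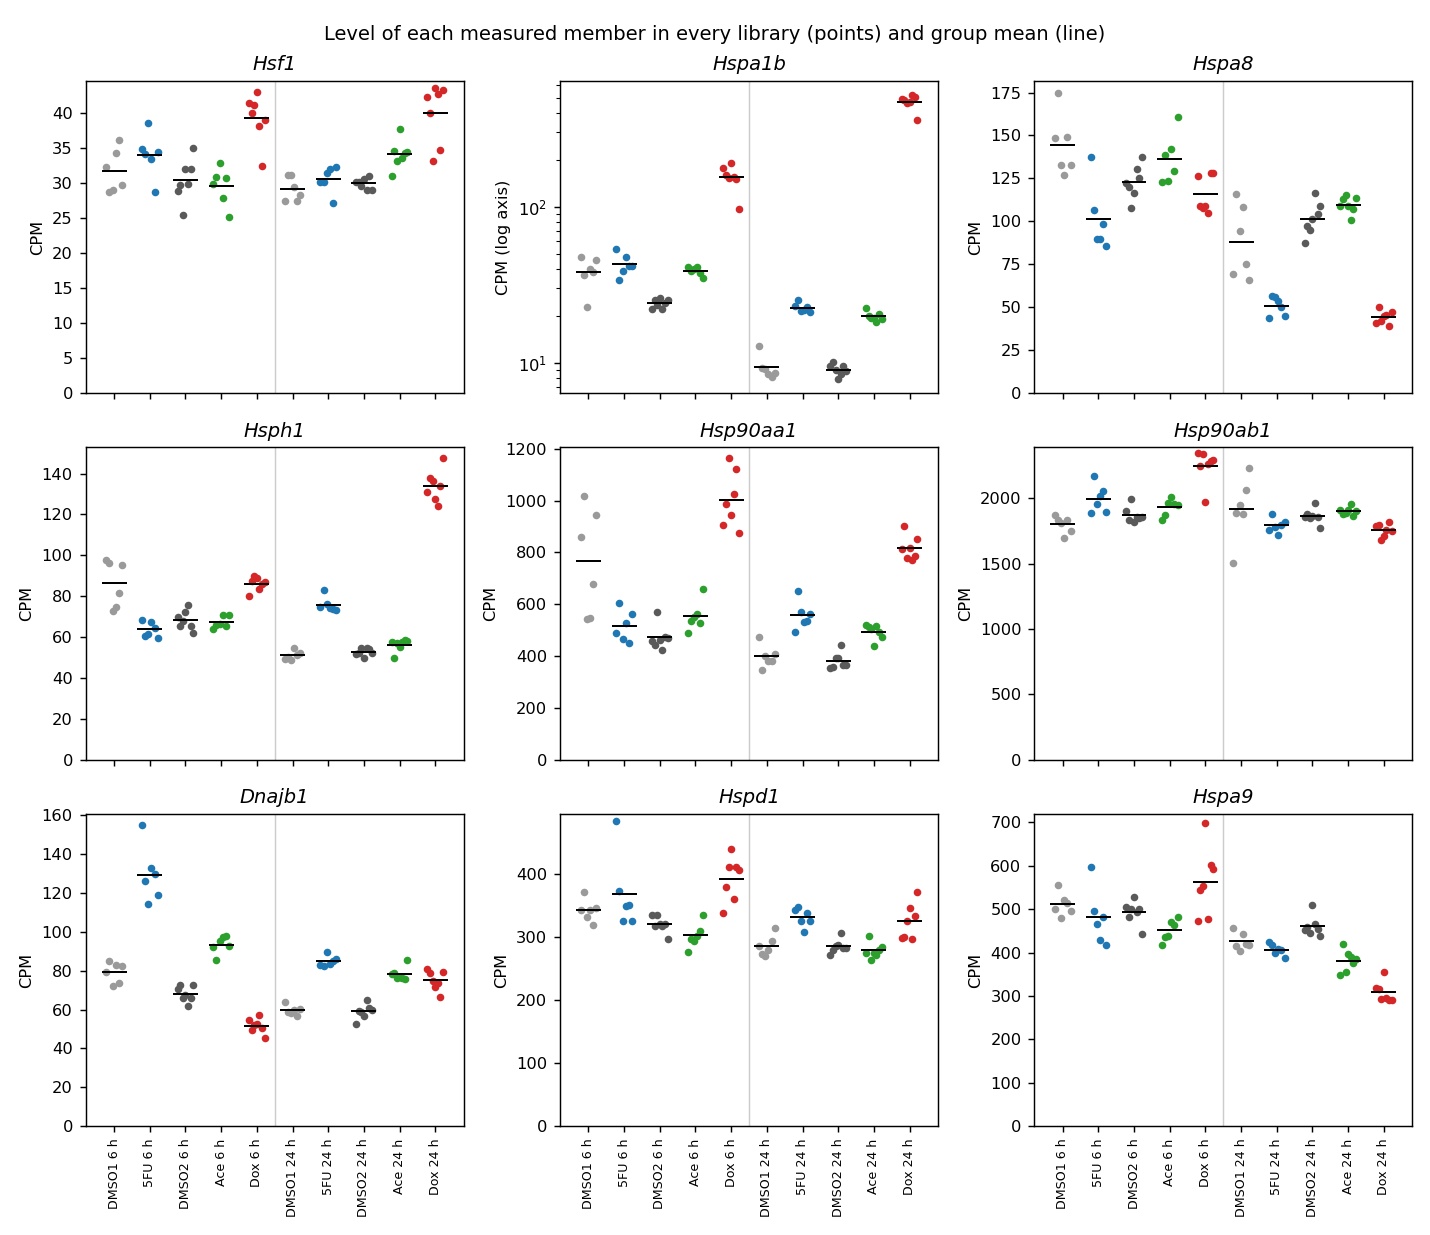
CPM of the 9 measured members in every library (points, coloured by treatment) with the group mean (line), at 6 hours to the left and 24 hours to the right of the grey line. The axis of Hspa1b is logarithmic and the others start at 0. Hspa1b in Dox stands apart from all other groups at both time points, from 96.3 to 189 CPM at 6 and from 359 to 517 at 24 hours.

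Hsf1 (Entrez gene 79245), the transcription factor itself, was the least variable member after Hsp90ab1. Its group means ran from 29.2 CPM in DMSO1 at 24 hours to 39.9 in Dox at 24 hours, a 1.37-fold range. In DMSO2 at 24 hours the libraries lay at 29.0 (lowest), 30.1 (median) and 30.9 CPM (highest), and in Dox at 33.1, 42.3 and 43.6. The groups did not overlap, and 2 of the 7 Dox libraries sat below 35 CPM while the other 5 were at 39 CPM or more. Hsf1 rose by a log2 fold change of 0.42 ± 0.063 (SE, FDR 1.9e-08, edgeR's quasi-likelihood test). At 6 hours Dox gave 32.4, 39.9 and 43.0 CPM against 25.4, 29.8 and 35.0 in DMSO2, which overlap, and a log2 fold change of 0.37 ± 0.063 (FDR 5.3e-07). The 7 Ace libraries at 24 hours, from 31.0 to 37.7 CPM, all lay above the DMSO2 libraries, yet the log2 fold change of 0.19 ± 0.064 did not pass (FDR 0.011). It did pass without library 1 (0.22, FDR 0.0048) or library 3 (0.20, FDR 0.0099) of the Ace group. It also passed in a fit of the compared groups only (FDR 0.0004) and with scaling by library size alone (0.25, FDR 0.0025). With another filter on low counts it passed as well (0.20, FDR 0.0083). Hsf1 transcript levels do not report the activity of the factor, which is set on the protein.

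Hspa1b (Entrez gene 108348108), the stress-inducible cytosolic Hsp70, had the widest range of the members, 52.1-fold between the highest and the lowest group mean. Its twin Hspa1a has a nearly identical sequence and no row in the table, so the Hspa1b row may hold reads of both genes and is uncertain in that respect. In DMSO2 at 6 hours its libraries lay at 22.2, 24.2 and 26 CPM (lowest, median, highest), and in Dox at 96.3, 154 and 189. Every Dox library lay far above the highest control, and library 7 of the Dox group was the low one. Hspa1b rose 6.40-fold in Dox at 6 hours (log2 fold change 2.68 ± 0.1, FDR 2.5e-32). At 24 hours the controls had dropped to 7.86, 8.90 and 10.0 CPM and Dox stood at 359, 482 and 517, a 52.1-fold difference (5.70 ± 0.12, FDR 1.5e-47). The effect of Dox was larger at 24 than at 6 hours by 3.02 ± 0.15 on the log2 scale (FDR 6e-27, interaction term).

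In Ace, Hspa1b lay at 34.7, 39.2 and 41.1 CPM at 6 hours and at 18.2, 19.3 and 22.3 at 24 hours. All Ace libraries exceeded all DMSO2 libraries of their time point, and Hspa1b rose 1.61-fold at 6 hours (log2 fold change 0.69 ± 0.11, FDR 3.2e-07) and 2.19-fold at 24 hours (1.13 ± 0.12, FDR 1.5e-12, edgeR's quasi-likelihood test). In 5FU at 6 hours its libraries, at 33.9, 41.8 and 53.1 CPM, overlapped the DMSO1 libraries at 22.7, 39.1 and 47.3, and the difference of 0.16 ± 0.11 did not pass (FDR 0.2, 95% interval -0.06 to 0.38). At 24 hours 5FU stood at 21.2, 22.2 and 25.1 CPM against 8.04, 8.88 and 12.7 in DMSO1, with no overlap, and Hspa1b rose 2.39-fold (1.26 ± 0.13, FDR 2.2e-13). The effect of 5FU differed between the time points by 1.1 ± 0.17 (FDR 1.2e-07). The 24-hour effects of Ace and 5FU did not differ past the threshold (Ace minus 5FU -0.13 ± 0.17, 95% interval -0.47 to 0.22, FDR 0.57).

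**Figure D2:**
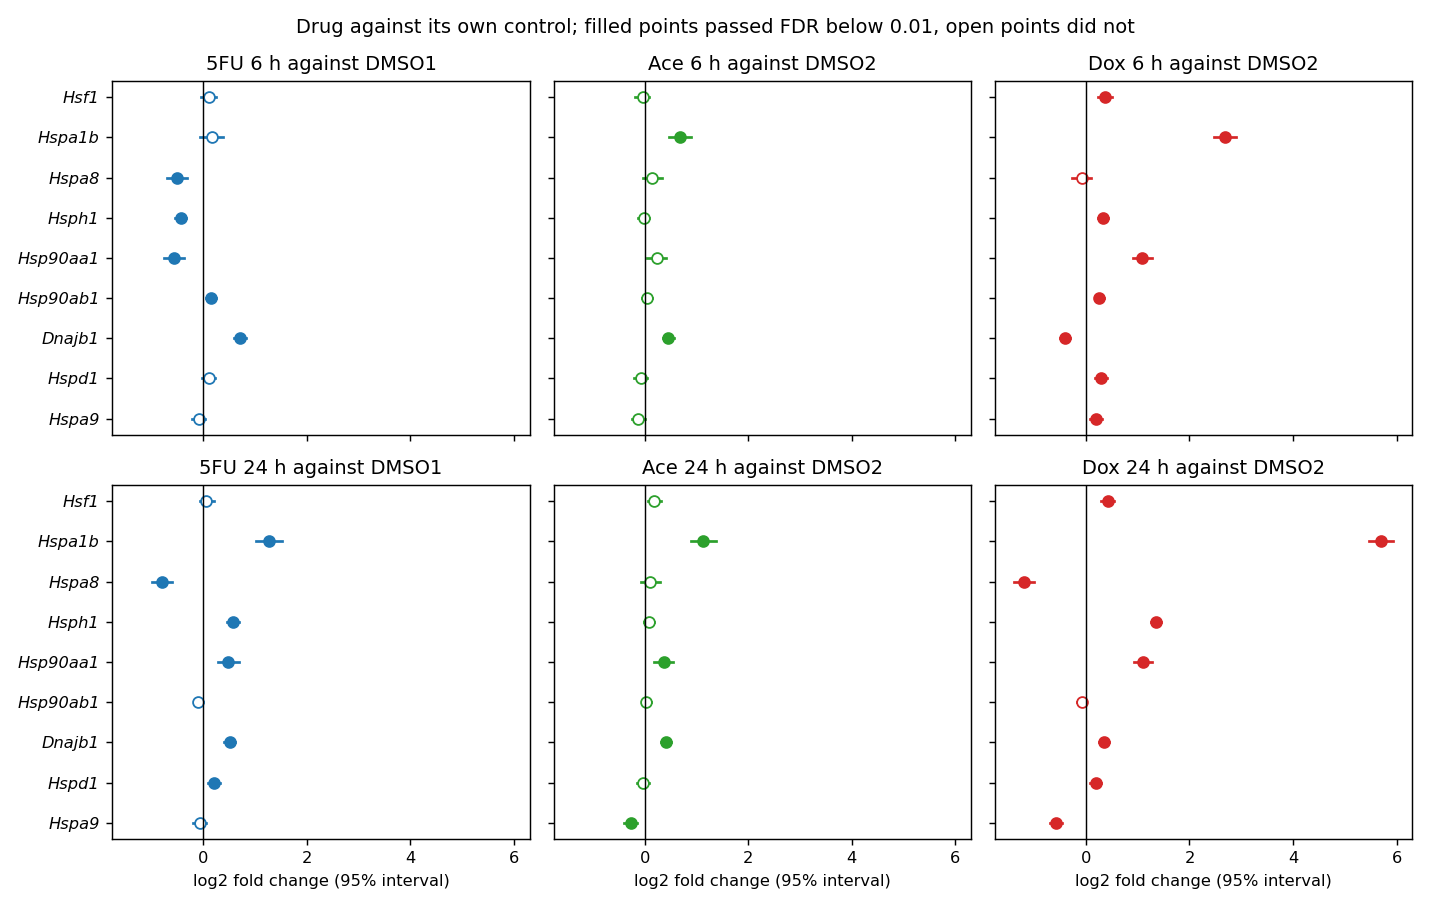
Log2 fold change (points) and 95% interval (lines) of each member against its own control, with 1 panel per drug and time point. Filled points passed an FDR below 0.01 and open points did not. Hspa1b in Dox lies at 2.68 at 6 and 5.70 at 24 hours, and in Dox at 6 hours Dnajb1 (-0.40, filled) and Hspa8 (-0.08, open) lie below 0.

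Dnajb1 (Entrez gene 361384), the J-domain protein that brings clients to Hsp70 and spurs its ATPase, did not follow Hspa1b in 5FU and Dox at 6 hours. Both genes were higher in Ace at 6 hours and in every drug at 24 hours. Dnajb1 passed the test in all 6 drug comparisons, higher in 5 and lower in Dox at 6 hours. In DMSO1 at 6 hours its libraries lay at 72.2, 80.7 and 85 CPM and in 5FU at 114, 128 and 155. The groups were far apart, and Dnajb1 rose 1.64-fold in 5FU (log2 fold change 0.71 ± 0.053, FDR 4.4e-18, edgeR's quasi-likelihood test), while Hspa1b did not pass in the same libraries. In DMSO2 at 6 hours its libraries lay at 61.8, 67.3 and 72.5 CPM, in Ace at 85.3, 93.9 and 98.0 and in Dox at 45.2, 51.8 and 57.1. All Ace libraries were above and all Dox libraries below the controls, with log2 fold changes of 0.45 ± 0.051 (FDR 6.4e-11) and -0.40 ± 0.05 (FDR 2.2e-10). The direct difference between Dox and Ace was -0.86 ± 0.052 (FDR 1e-22).

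At 24 hours Dnajb1 was higher in all 3 drugs, by 0.51 ± 0.054 in 5FU, 0.41 ± 0.05 in Ace and 0.35 ± 0.05 in Dox (largest FDR 4.5e-09, edgeR's quasi-likelihood test). The Dox libraries had gone from the lowest group to 66.5, 74.7 and 80.9 CPM, above all DMSO2 libraries at 52.7, 59.3 and 64.7, and the effect of Dox differed between the time points by 0.75 ± 0.071 (FDR 1.4e-14). Dox and Ace did not differ past the threshold at 24 hours (-0.06 ± 0.05, 95% interval -0.16 to 0.04, FDR 0.26). Ace at 24 hours held 1 library at 85.3 CPM, apart from the other 6.

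**Figure D3:**
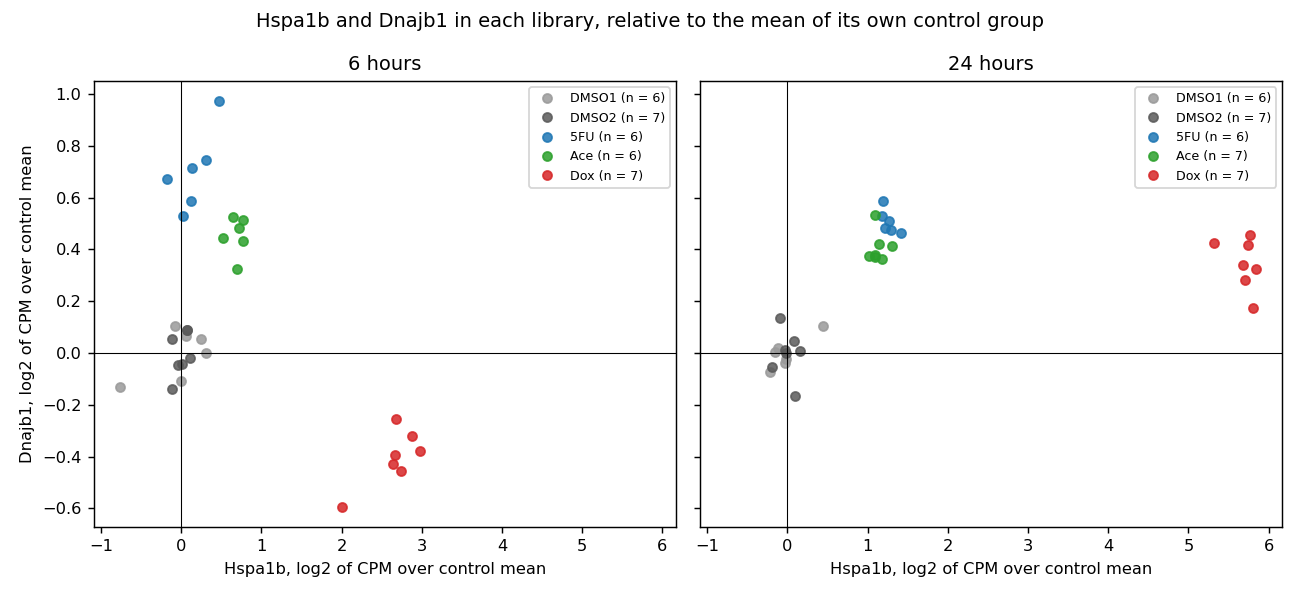
Hspa1b (horizontal) against Dnajb1 (vertical) in each library, as log2 of CPM over the mean of its own control group, at 6 (left) and 24 hours (right). Each point is a library. At 6 hours the 5FU libraries sit high on the Dnajb1 axis and near 0 on the Hspa1b axis, and the Dox libraries sit below 0 on the Dnajb1 axis and at 2 or more on the Hspa1b axis. At 24 hours all drug libraries lie above 0 on both axes.

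Hsph1 (Entrez gene 288444), the Hsp110 that exchanges the nucleotide of Hsp70, was lower in 5FU at 6 hours and higher at 24 hours. In DMSO1 at 6 hours its libraries lay at 72.6, 88.3 and 97.6 CPM and in 5FU at 59.7, 63.0 and 68.4, without overlap, a log2 fold change of -0.44 ± 0.054 (FDR 2.2e-10, edgeR's quasi-likelihood test). At 24 hours 5FU stood at 73.0, 74.4 and 83.2 against 48.8, 50.8 and 54.7, also without overlap, a log2 fold change of 0.57 ± 0.054 (FDR 4.4e-14). The difference between the time points was 1.01 ± 0.076 (FDR 5.8e-17). Between 6 and 24 hours the median CPM went from 88.3 to 50.8 in DMSO1 and from 63.0 to 74.4 in 5FU. Against the DMSO2 libraries of 6 hours (62.0, 67.8 and 75.5 CPM), the 5FU libraries of 6 hours overlapped. In Dox, Hsph1 lay at 80.0, 86.7 and 89.9 CPM at 6 hours and at 124, 134 and 148 at 24 hours, above all DMSO2 libraries both times, with log2 fold changes of 0.33 ± 0.05 (FDR 2.1e-08) and 1.35 ± 0.05 (FDR 1.9e-34). In Ace it did not pass at either time (-0.02 ± 0.052 and 0.09 ± 0.05). With scaling by library size alone the 24-hour value in Ace was 0.15 and passed (FDR 0.0035).

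Hspa8 (Entrez gene 24468), the constitutive Hsp70 of the cytosol, fell more than any other member in a drug compared with its control. In DMSO2 at 24 hours its libraries lay at 87.3, 101 and 116 CPM and in Dox at 38.9, 45.1 and 50.1. The groups were far apart, with a log2 fold change of -1.20 ± 0.094 (FDR 1.8e-18, edgeR's quasi-likelihood test). At 6 hours Dox, at 105, 109 and 128 CPM, overlapped DMSO2, at 108, 122 and 137, and -0.08 ± 0.09 did not pass (FDR 0.43). The effect differed between the time points by -1.12 ± 0.13 (FDR 1.7e-11). In 5FU at 6 hours 5 of 6 libraries lay between 85.5 and 107 CPM and library 1 at 137, against 127, 141 and 175 in DMSO1, a log2 fold change of -0.51 ± 0.098 (FDR 9.5e-06). At 24 hours 5FU lay at 43.7, 52.1 and 56.3 and DMSO1 at 65.8, 84.8 and 116, without overlap and with the controls widely spread, a log2 fold change of -0.80 ± 0.1 (FDR 3.7e-10). In Ace the differences of 0.15 ± 0.094 and 0.11 ± 0.091 did not pass, and their 95% intervals reached from -0.04 to 0.34 and from -0.07 to 0.29.

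The Hspa8 row holds only a part of the reads that resemble Hspa8. A row named Hspa8-ps25, a pseudogene of Hspa8, held most of them, from 481 to 1670 CPM, and the Hspa8 row took 4.96% to 10.2% of the counts of both rows in the 65 libraries (median 8.27%). Which of the 2 loci the reads came from cannot be told from the counts. Both rows moved together. Hspa8-ps25 changed by -0.43 ± 0.078 and -0.83 ± 0.078 in 5FU at 6 and 24 hours and by -1.15 ± 0.073 in Dox at 24 hours (largest FDR 2.4e-06, edgeR's quasi-likelihood test), and did not pass in Dox at 6 hours or in Ace. When both rows were summed, an alternative chosen after seeing the data, all 94 calls of members over the 19 comparisons held and 1 was added, the interaction of 5FU with time for Hspa8 (-0.39, FDR 0.0018).

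**Figure D4:**
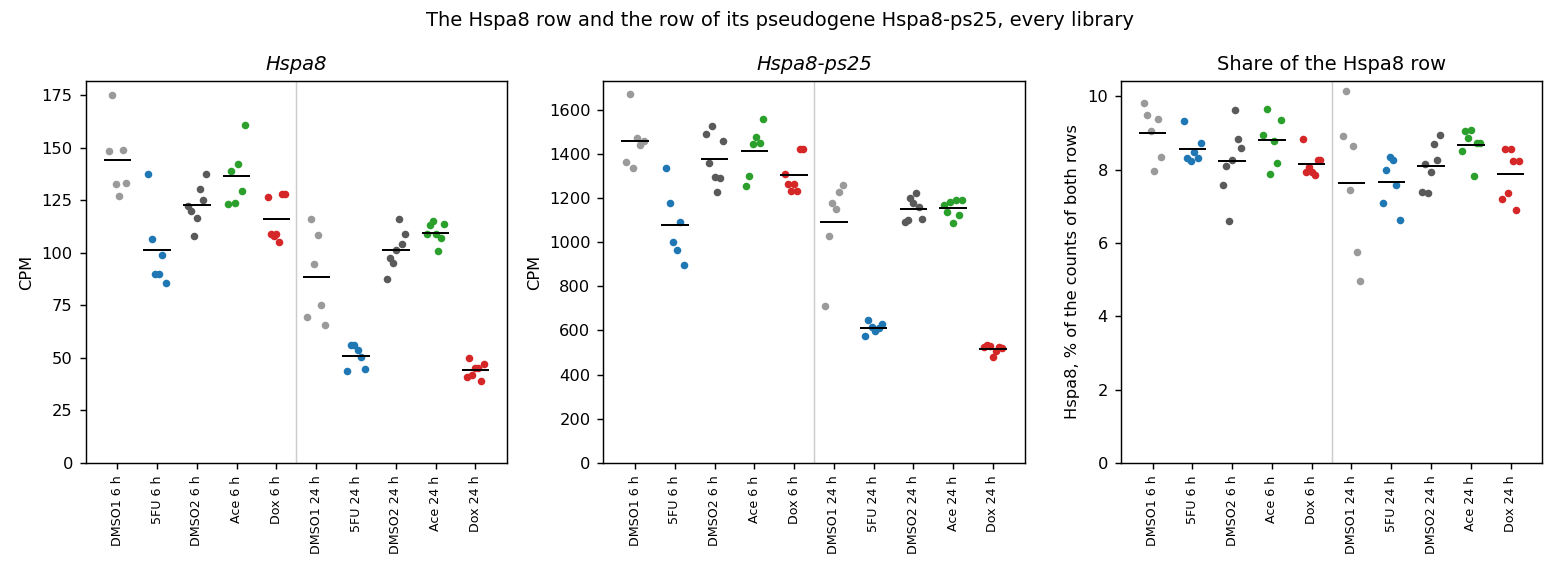
CPM of Hspa8 (left) and of the pseudogene row Hspa8-ps25 (middle) in every library, with group means as lines, and the share of the counts of both rows that the Hspa8 row took (right). Both rows are lowest in 5FU and Dox at 24 hours, and the share lies between 4.96% and 10.2%, with its widest spread in DMSO1 at 24 hours.

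The Hsp90 isoforms behaved differently. Hsp90aa1 (Entrez gene 299331), the stress-inducible isoform, rose 2.13-fold in Dox at 6 hours and 2.14-fold at 24 hours. Its libraries lay at 425, 462 and 571 CPM in DMSO2 and at 874, 987 and 1160 in Dox at 6 hours, and at 354, 366 and 443 against 772, 813 and 902 at 24 hours. No library of one group reached the other, and the log2 fold changes were 1.09 ± 0.091 (FDR 8.2e-17) and 1.1 ± 0.091 (FDR 1.6e-17, edgeR's quasi-likelihood test). Unlike for Hspa1b, the effect of Dox at 24 and at 6 hours differed by only 0.01 ± 0.13 (95% interval -0.24 to 0.27). In Ace, Hsp90aa1 passed at 24 hours (0.37 ± 0.09, FDR 0.0004), with 439, 506 and 520 CPM and slight overlap with the controls, and not at 6 hours (0.23 ± 0.093, FDR 0.039).

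In 5FU, Hsp90aa1 was lower at 6 hours (log2 fold change -0.57 ± 0.097, FDR 1e-06) and higher at 24 hours (0.48 ± 0.097, FDR 1.6e-05), and the effects differed by 1.05 ± 0.14 (FDR 3.1e-09, edgeR's quasi-likelihood test). The 6-hour value rests on DMSO1 libraries that were split: 3 lay at 860, 944 and 1019 CPM and the other 3 at 544, 546 and 679, while the 5FU libraries ran from 449 to 604. At 24 hours the 5FU libraries, from 493.4 to 649, lay above all DMSO1 libraries, from 347 to 474. Between 6 and 24 hours the median CPM of Hsp90aa1 went from 769 to 391 in DMSO1 and from 508 to 549 in 5FU. The 5FU libraries of 6 hours overlapped the DMSO2 libraries of 6 hours, at 425, 462 and 571 CPM.

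Hsp90ab1 (Entrez gene 301252), the constitutive isoform, had the narrowest range of the members, 1.28-fold between 1760 CPM in Dox at 24 hours and 2250 in Dox at 6 hours. In Dox at 6 hours 6 of 7 libraries lay between 2250 and 2350 CPM and library 4 at 1970, against 1820 to 2000 in DMSO2, a log2 fold change of 0.26 ± 0.045 (FDR 5.1e-07, edgeR's quasi-likelihood test). With scaling by library size alone it was 0.11 and no longer passed (FDR 0.046). At 24 hours it was -0.08 ± 0.045 and did not pass, and the effects differed by -0.35 ± 0.064 (FDR 2.2e-06). With scaling by library size alone that difference was -0.15 and did not pass. In 5FU at 6 hours the value of 0.15 ± 0.049 passed narrowly (FDR 0.0073). It was lost without any 1 of library 2, 4 or 5 of 5FU or library 2, 3, 4 or 6 of DMSO1 (0.12 to 0.15, FDR 0.011 to 0.039), with scaling by library size alone (0.0758, FDR 0.24) and in a fit of the compared groups only (0.15, FDR 0.055). At 24 hours -0.10 ± 0.049 did not pass, and without library 1 of DMSO1, at 1502 CPM the lowest of its group, it was -0.16 and passed (FDR 0.00084).

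Among the mitochondrial members, Hspd1 (Entrez gene 63868), the barrel of the chaperonin, changed little. It rose in Dox at 6 hours, from 297, 320 and 335 CPM in DMSO2 to 339, 407 and 440 without overlap (log2 fold change 0.29 ± 0.057, FDR 7e-06, edgeR's quasi-likelihood test; with scaling by library size alone 0.14, FDR 0.01, which did not pass). At 24 hours it rose by 0.19 ± 0.057 in Dox (FDR 0.0021) and by 0.21 ± 0.062 in 5FU (FDR 0.0022), each with overlapping libraries. It did not pass in Ace (-0.08 ± 0.059 and -0.03 ± 0.057) or in 5FU at 6 hours (0.10 ± 0.061), where library 1, at 485 CPM, lay apart from the other 5 at 325 to 373.

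Hspa9 (Entrez gene 291671), the mitochondrial Hsp70, fell in Dox at 24 hours. Its libraries lay at 439, 454 and 509 CPM in DMSO2, at 349, 384 and 421 in Ace and at 291, 295 and 356 in Dox. Both drugs were below all controls, with log2 fold changes of -0.58 ± 0.06 in Dox (FDR 1.8e-13) and -0.27 ± 0.06 in Ace (FDR 0.00014, edgeR's quasi-likelihood test), and Dox was below Ace by -0.31 ± 0.06 (FDR 5.4e-06). At 6 hours Dox, at 473, 553 and 699 CPM, overlapped DMSO2, at 442, 500 and 529, with a log2 fold change of 0.19 ± 0.06 (FDR 0.0036). That call was lost without library 4 (0.13, FDR 0.035) or library 6 (0.18, FDR 0.01) of Dox or library 7 of DMSO2 (0.17, FDR 0.014), with scaling by library size alone (0.0362, FDR 0.57), in a fit of the compared groups only (0.20, FDR 0.027) and without the libraries that lay apart (0.13, FDR 0.027). The effect of Dox differed between the time points by -0.77 ± 0.085 (FDR 3.2e-12). In 5FU Hspa9 did not pass at either time (-0.09 ± 0.065 and -0.07 ± 0.065). Without the libraries that lay apart in any member, the 6-hour value was -0.17 and passed (FDR 0.0049).

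Marker genes of the cell types in the cultures changed in the same comparisons. At 24 hours, over 9 cardiomyocyte markers with a row (of 10 listed, Ttn without one), the summed level ran from 39200 to 52100 CPM in DMSO2 at 24 hours and from 11900 to 16900 in Dox, and from 37800 to 44700 in DMSO1 against 26200 to 28200 in 5FU. Over 10 fibroblast markers the sums were 15700 to 19700 in DMSO2, 7650 to 9830 in Ace and 2560 to 5050 in Dox, and 10400 to 20500 in DMSO1 against 5330 to 6050 in 5FU. Over 9 endothelial markers (of 10) they were 291 to 387 in DMSO2, 176 to 305 in Ace and 27.4 to 60.1 in Dox. The endothelial sums were 225 to 321 in DMSO1 and 158 to 186 in 5FU. Over 10 macrophage markers they were 124 to 151 in DMSO2, 89.7 to 110 in Ace and 52.9 to 71.0 in Dox. The macrophage sums were 120 to 154 in DMSO1 and 103 to 119 in 5FU. At 6 hours the endothelial sum was 264 to 327 in DMSO2, 194 to 239 in Ace and 91.1 to 145 in Dox, with 9 of 9 markers lower in Dox, and the fibroblast sum was 10300 to 15700 in DMSO2, 7750 to 12000 in Ace and 8560 to 11600 in Dox. The cardiomyocyte sums of Dox (37300 to 54400) and DMSO2 (40200 to 46500) overlapped at 6 hours. DMSO1 at 6 hours stood below DMSO2 in the endothelial sum (163 to 230, 7 of 9 markers lower), and 7 of 10 fibroblast markers were lower there (sum 7000 to 12000). The cardiomyocyte sum of DMSO1 at 6 hours ran from 44400 to 66400, with 4 of 9 markers higher and 1 lower than in DMSO2. Of the 10 macrophage markers 0 passed in that comparison. No marker was at 0 in all libraries of a group. In such bulk samples fewer cells of a type and less RNA per cell cannot be told apart, and the part of these shifts in the members' changes was not tested.

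The effects on the members were also compared between drugs. Dox and Ace, which share their controls, were set against each other directly. Dox was higher than Ace for 7 members at 6 hours and lower for Dnajb1 (8 of 9 called, against 62.1% of all genes, 30.6% higher and 31.4% lower). At 24 hours Dox was higher for Hsf1, Hspa1b, Hsp90aa1, Hsph1 and Hspd1 and lower for Hspa8 and Hspa9 (7 of 9, against 80.6% of all genes, 40.7% higher and 39.9% lower). With scaling by library size alone the 6-hour split was 6 higher and 2 lower, as Hsp90ab1 went from 0.22 to 0.0974 and was lost (FDR 0.096) while Hspa8 went from -0.23 ± 0.094 (FDR 0.025) to -0.35 and passed (FDR 0.0003). Hspa8 also passed in a fit of the compared groups only (-0.23, FDR 0.006). The Hsf1 difference of 0.23 ± 0.063 (FDR 0.00072, edgeR's quasi-likelihood test) fell to 0.18 and was lost without the libraries that lay apart in any member, an alternative added after seeing the data. Hspa1b in Dox exceeded that in Ace 3.98-fold at 6 and 23.7-fold at 24 hours, and Hsph1 2.39-fold at 24 hours.

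The signed log2 effect of Dox was above that of 5FU at 6 hours for Hspa1b, Hspa8, Hsp90aa1, Hsph1 and Hspa9 and below it for Dnajb1 (6 of 9, against 45.9% of all genes, 22% higher and 24% lower). The differences were 2.52 ± 0.15 for Hspa1b, 1.66 ± 0.13 for Hsp90aa1, 0.77 ± 0.073 for Hsph1 and -1.11 ± 0.073 for Dnajb1 (largest FDR 3.2e-14, edgeR's quasi-likelihood test). Those of Hspa8 (0.43 ± 0.13, FDR 0.0046) and Hspa9 (0.28 ± 0.088, FDR 0.0056) set effects of -0.08 and 0.19 in Dox against -0.51 and -0.09 in 5FU. Both were lost with scaling by library size alone (0.36, FDR 0.012, and 0.20, FDR 0.033) and without 1 library, Hspa8 without library 3 or 6 of 5FU or 2 of DMSO1 (0.37 to 0.40), and Hspa9 without library 4 or 6 of 5FU, 2 of DMSO1, 1 or 7 of DMSO2 or 4 of Dox (0.22 to 0.27). That of Hspa9 was also lost in a fit of the compared groups only (0.29, FDR 0.03). At 24 hours 6 of 9 differed (71.1% of all genes, 35.8% higher and 35.4% lower), with the signed effect of Dox above that of 5FU for Hsf1, Hspa1b, Hsp90aa1 and Hsph1 and below it for Hspa8 and Hspa9. The Hspa8 difference (-0.40 ± 0.14, FDR 0.0067) was lost in 11 of 26 fits without 1 library (-0.38 to -0.32), namely libraries 2, 3 and 4 of 5FU, 1, 5 and 6 of DMSO1, 5 and 7 of DMSO2 and 1, 3 and 6 of Dox. It was also lost with DESeq2's Wald test (-0.36, FDR 0.012), with its size factors (-0.36, FDR 0.015), with scaling by library size alone (-0.35, FDR 0.011) and without the libraries that lay apart (-0.32, FDR 0.042). Hsf1 at 6 hours, at 0.27 ± 0.093, did not pass (FDR 0.011) and passed in 9 fits without 1 library (0.28 to 0.32) and with DESeq2 (0.29, FDR 0.0046).

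Between Ace and 5FU, 5 of 9 members differed at 6 hours (30.9% of all genes, 17.1% higher and 13.8% lower), with the signed effect of Ace above that of 5FU for Hspa1b, Hspa8, Hsp90aa1 and Hsph1 and below it for Dnajb1. At 24 hours 2 of 9 differed (37.3%, 19.1% higher and 18.2% lower), with that of Ace above for Hspa8 (0.91 ± 0.14, FDR 8.9e-08) and below for Hsph1 (-0.48 ± 0.074, FDR 2.2e-07, edgeR's quasi-likelihood test). At 6 hours the Dnajb1 difference (-0.26 ± 0.074, FDR 0.0038) was lost without library 1 of 5FU, 2 of Ace or 3 of DMSO1 (-0.23 to -0.19), in a fit of the compared groups only (-0.26, FDR 0.017) and without the libraries that lay apart (-0.21, FDR 0.01), and that of Hspa1b (0.53 ± 0.15, FDR 0.004) without library 2 of 5FU or 1 or 6 of DMSO1 (0.46 to 0.48). The 5FU effects are measured against another control than the Ace and Dox effects.

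The controls themselves bear on these values. At 6 hours 4 of 9 members were higher in DMSO1 than in DMSO2 (16.5% of all genes, 9.87% higher and 6.6% lower), and none was lower. Hspa1b was 1.59-fold higher (log2 fold change 0.67 ± 0.11, FDR 2.2e-06), Hsp90aa1 1.62-fold (0.70 ± 0.093, FDR 4e-08), Hsph1 1.27-fold (0.34 ± 0.051, FDR 6.9e-07) and Dnajb1 1.16-fold (0.22 ± 0.052, FDR 0.001, edgeR's quasi-likelihood test). The Dnajb1 call was lost with scaling by library size alone (0.13, FDR 0.026). Hspa1b in DMSO1 at 6 hours, at 22.7, 39.1 and 47.3 CPM, lay in the range of Ace at the same time in 5 of 6 libraries, or above it, and library 3 lay in the range of DMSO2. At 24 hours 0 of 9 members differed between the controls (0.433% of all genes, 0.137% higher and 0.295% lower; 1 member had an unadjusted p under 0.05 in edgeR, and DESeq2 called 0 at an FDR below 0.01).

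With time in culture most members fell in the controls. From 6 to 24 hours 7 of 9 were lower in DMSO1 (53.8% of all genes, 25.9% higher and 27.9% lower) and 6 of 9 in DMSO2 (52.6%, 27% higher and 25.5% lower), and none was higher. Hsf1 (-0.12 ± 0.069 and -0.02 ± 0.064) and Hsp90ab1 passed in neither control, and Hspa9 passed in DMSO1 (-0.26 ± 0.065) but not in DMSO2 (-0.10 ± 0.06). Hspa1b fell by 2.03 ± 0.12 in DMSO1 and by 1.42 ± 0.12 in DMSO2 on the log2 scale (FDR 2.8e-22 and 1.2e-16, edgeR's quasi-likelihood test). Hsp90aa1 changed by -0.94 ± 0.098 and -0.31 ± 0.09, Hsph1 by -0.76 ± 0.054 and -0.37 ± 0.05 and Hspa8 by -0.71 ± 0.098 and -0.28 ± 0.091. In DMSO2 the calls of 3 members were narrow. Hspa8 (FDR 0.0069) was lost without library 1, 2, 3 or 4 of 24 hours or 1, 5 or 7 of 6 hours (-0.27 to -0.24), Hsp90aa1 (FDR 0.0024) without library 3 of 6 hours (-0.26, FDR 0.013), and Hspd1 (-0.17 ± 0.057, FDR 0.0085) without any 1 of library 1, 2, 3, 4, 6 or 7 of 24 hours or 1, 2, 3, 4 or 5 of 6 hours (-0.17 to -0.15) and with DESeq2's Wald test (-0.16, FDR 0.01). Hspa9 passed in DMSO2 with scaling by library size alone (-0.17, FDR 0.0082). Hsp90ab1 stood at 0.09 ± 0.049 in DMSO1 and -0.01 ± 0.045 in DMSO2, and the DMSO1 value became 0.15 and passed (FDR 0.0013) without library 1 of 24 hours. Over the same time the fibroblast sum went from 7000 to 12000 up to 10400 to 20500 CPM in DMSO1 (8 of 10 markers higher) and from 10300 to 15700 up to 15700 to 19700 in DMSO2 (6 of 10 higher). Of 10 macrophage markers 7 were higher in each control and 0 lower. Of 9 endothelial markers 5 were higher and 2 lower in DMSO1, and 4 higher and 3 lower in DMSO2. The median cardiomyocyte sum went from 56800 to 41900 CPM in DMSO1 and from 42300 to 47200 in DMSO2.

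Whether a drug's effect differed between the time points was tested as an interaction. For Dox 6 of 9 members differed (64.8% of all genes, 34% higher and 30.8% lower), with a signed log2 effect that was higher at 24 than at 6 hours for Hspa1b, Hsph1 and Dnajb1 and lower for Hspa8, Hsp90ab1 and Hspa9. Dnajb1 went from -0.40 to 0.35, Hsp90ab1 from 0.26 to -0.08, Hspa9 from 0.19 to -0.58 and Hspa8 from -0.08 to -1.20. For 5FU 4 of 9 differed (39.5%, 20.3% higher and 19.2% lower), with the signed effect of Hspa1b, Hsp90aa1 and Hsph1 higher and that of Hsp90ab1 lower at 24 hours (-0.24 ± 0.069, FDR 0.0022, edgeR's quasi-likelihood test). The Hsp90ab1 value was lost without library 6 of DMSO1 at 24 hours (-0.19, FDR 0.014), with scaling by library size alone (-0.18, FDR 0.043) and in a fit of the compared groups only (-0.26, FDR 0.028). Dnajb1 in 5FU, at -0.20 ± 0.076 (FDR 0.022), passed without library 3 of 5FU at 6 hours (-0.24, FDR 0.0071). For Ace 0 of 9 differed (11.6% of all genes, 5.58% higher and 6.06% lower; 2 members had an unadjusted p under 0.05 in edgeR, and DESeq2 called 0 at an FDR below 0.01). The largest of these was Hspa1b (0.45 ± 0.16, FDR 0.037), which passed with scaling by library size alone (0.54, FDR 0.0079), in a fit of the compared groups only (0.45, FDR 5.8e-05) and without the libraries that lay apart (0.46, FDR 0.0077).

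Beyond the members, 94 other chaperone, co-chaperone and Hsf1 target genes were followed, of which 89 had a row. Their counts are read against the share of all genes called, which was 64.2% in Dox at 6 and 81.4% at 24 hours, 47.9% and 55.8% in 5FU and 31.7% and 37.2% in Ace, and nothing is called particular to a list. Among 6 other Hsp70 and Hsp110 genes (of 7, Hspa1a without a row), 5 were higher in Dox at 24 hours and 1 was lower, with a median log2 fold change of 1.48. Hspa2, an Hsp70 best known from the testis, rose by 2.67 at 6 and 6.49 at 24 hours in Dox and by 0.80 and 1.17 in Ace. Hspa4l, an Hsp110, rose by 0.84 and 1.74 in Dox, and Hspa13 was the gene that fell at 24 hours (-0.90). In 5FU at 24 hours 5 of the 6 were higher and none lower (median 0.34), while at 6 hours 1 was higher and Hspa1l (-0.92) and Hspa4l (-0.47) were lower (3 called, and 5 with scaling by library size alone).

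Among 3 further regulators (of 4, Hsf5 without a row), Hsf4, a factor best known from the lens, rose in Dox by 2.80 at 6 and 3.61 at 24 hours. It did not pass in 5FU or Ace. Its mean count was low, at 62.42 over all 65 libraries with those of Dox included. Hsf2 rose by 0.18 and then fell by 0.48 in Dox. Of 13 other textbook Hsf1 targets (of 14) 7 rose and 4 fell in Dox at 6 hours, and 8 rose and 4 fell at 24 hours (median 0.72), against 64.2% and 81.4% of all genes called. Dnaja1 (0.47 and 0.92), Hspb1 (0.92 and 0.91) and Stip1 (0.33 and 0.75) rose at both times. Bag3, a co-chaperone that rises with Hspa1b in heat shock, fell by 1.12 at 6 hours and stood at -0.03 at 24 hours. Serpinh1, the collagen chaperone of fibroblasts, fell by 1.84 at 24 hours, beside the fall in the fibroblast marker sum given above. In 5FU 2 rose and 5 fell at 6 hours, and 8 rose and 1 fell at 24 hours. In Ace 2 rose and 1 fell at 6 hours, and 4 rose and 2 fell at 24 hours, where 10 instead of 6 passed with scaling by library size alone. A 2-unit motif lay in 9 of 13 promoter windows of this list.

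Among 10 other J-domain genes, 3 rose and 2 fell in Dox at 6 hours, then 6 rose and 2 fell at 24 hours. In 5FU 1 was higher and 4 were lower at 6 hours, and 7 were higher and 1 lower at 24 hours. With scaling by library size alone the count in Dox at 6 hours went from 5 to 8 and the median from 0.04 to -0.11. Dnaja4 rose by 0.86 in 5FU at 24 hours and Dnajb5 by 1.59 in Dox. Of 19 co-chaperones of Hsp70 and Hsp90 (of 20, Bag5 without a row) 9 rose and 5 fell in Dox at 6 hours, then 7 rose and 9 fell at 24 hours. Bag1 (1.77) and Unc45a (1.21) rose most at 24 hours, and Unc45b, the myosin chaperone of striated muscle, fell by 3.06, in libraries in which the cardiomyocyte marker sum was also lower. In 5FU at 24 hours 10 were higher and 1 lower, with Fkbp4 (0.93) and Ppp5c (0.87) the largest increases.

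The cytosolic chaperonin CCT, which folds actin and tubulin, has 8 subunit genes. In Dox at 6 hours 6 were higher and none lower (median 0.28, and 0.13 with scaling by library size alone), and at 24 hours 4 were higher and 3 lower, with Cct2 (-0.91) and Cct4 (-0.78) the largest decreases and Cct6a (0.40) the largest increase. In Ace none passed at either time, and in 5FU 0 passed at 6 hours and 3 were higher at 24 hours. With scaling by library size alone 2 passed at each time in Ace and 1 in 5FU at 6 hours. In both controls 7 of 8 fell with time, against 27.9% of all genes lower in DMSO1 and 25.5% in DMSO2. Of 5 prefoldin genes (of 6, Vbp1 without a row), which deliver clients to CCT, 4 were higher in Dox at 6 hours, 1 with scaling by library size alone, and 4 were higher and 1 lower in 5FU at 24 hours.

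Of 13 other mitochondrial quality genes (of 14, Yme1l1 without a row), 8 rose and 4 fell in Dox at 6 hours, then 2 rose and 7 fell at 24 hours (7 passed at 6 hours with scaling by library size alone). Grpel1, the exchange factor of Hspa9, rose by 0.40 and 0.50, while Dnaja3, a J-domain partner of Hspa9, fell by 0.25 and 0.66. Of 7 small heat shock proteins, which hold unfolded proteins in the sarcomere, 5 rose and 1 fell in Dox at 6 hours, while 3 rose and 3 fell at 24 hours, with Cryab at 1.72 and Hspb7 at -2.11. In DMSO1 6 of 7 were higher than in DMSO2 at 6 hours, against 9.87% of all genes. Of 14 ER chaperones 13 were lower in 5FU at 24 hours (median -0.56), with only Dnajb11 higher (0.18), and in Dox at 24 hours 5 were higher and 8 lower. None of the 11 ER chaperone promoter windows held a 2-unit motif.

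**Figure D5:**
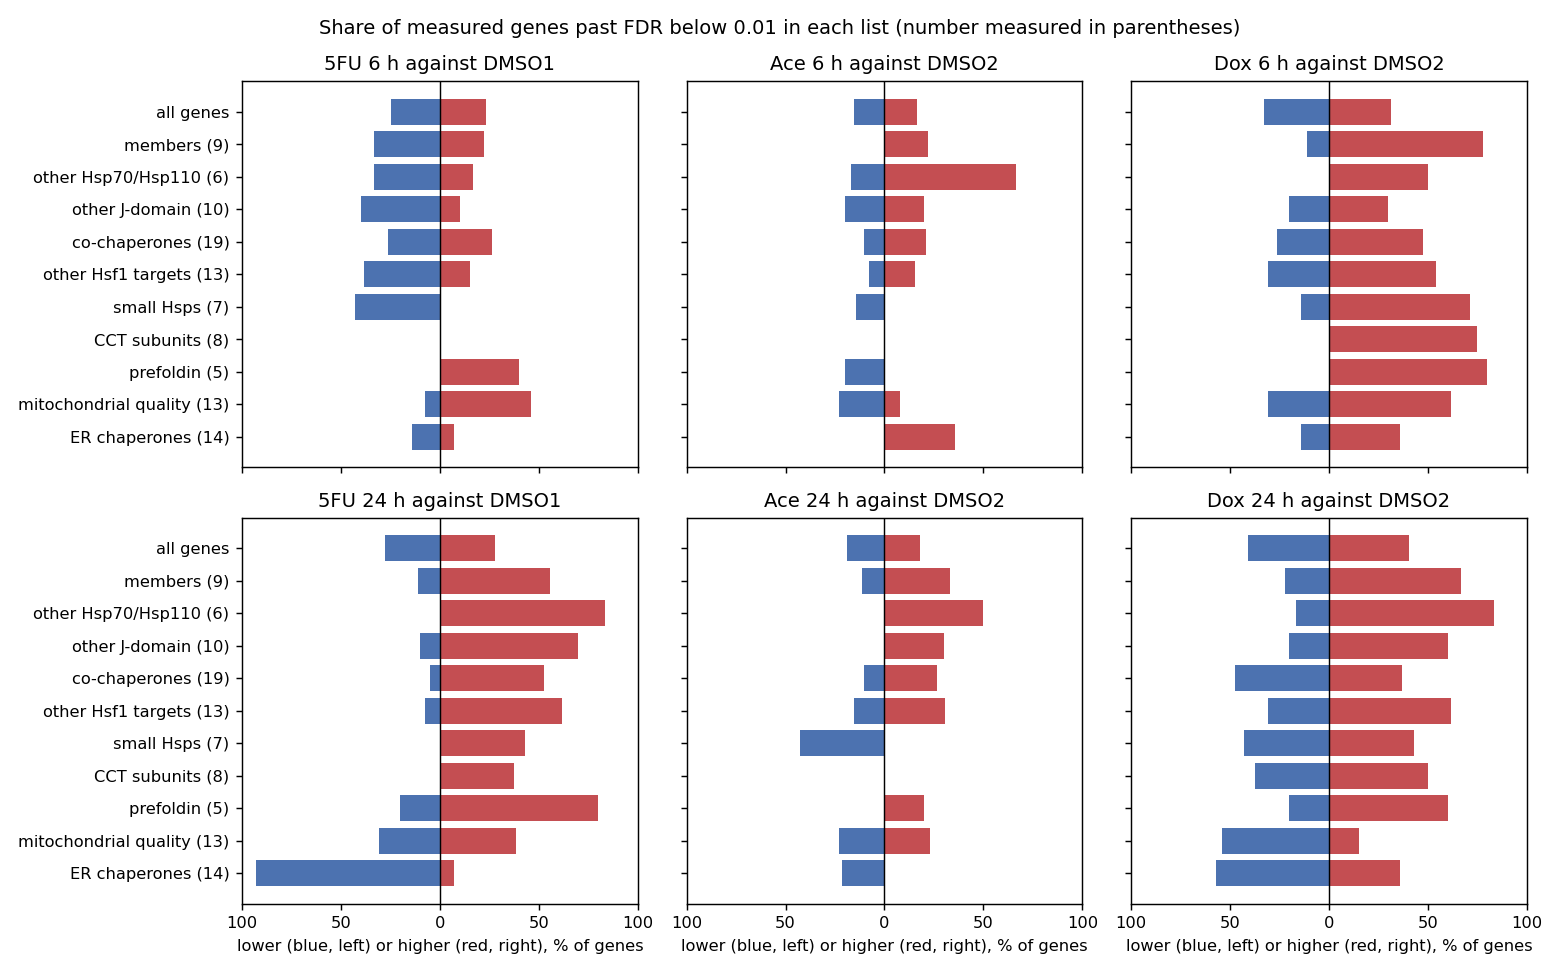
Share of the measured genes of each list of 5 or more (the 3 further regulators are not drawn) that were higher (red, to the right) or lower (blue, to the left) at an FDR below 0.01 in the 6 drug comparisons, with all 14554 genes and the 9 members in the top rows. In Dox at 6 hours the red bars of the members (7 of 9) and of prefoldin (4 of 5) are the longest of the lists drawn, and in 5FU at 24 hours that of the ER chaperones reaches furthest to the left, with 13 of 14 lower.

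For each member, the genes with the most similar pattern were found from the root mean square (RMS) difference of the 10 group means of log2 CPM, each centred on its own mean, among genes with a mean count of at least 100. For Hspa1b, whose centred means span 5.68, these were Hspa2 (RMS 0.38), Tent5b (0.40) and Nrip3 (0.42). For Hspa8, with a span of 1.70, they were Hspa8-ps25 (0.093), Glmn (0.14) and Vti1b (0.17). For Hsp90aa1 (span 1.39) they were Psmc3ip (0.15), Xpo1 (0.17) and Esf1 (0.18), for Hsph1 (1.39) Ywhag (0.11), Noc2l and C2h1orf52 (both 0.12), and for Dnajb1 (1.32) Slbp (0.14) and Inip (0.15). The flatter members were closest to Snrpb2, Eif3m and Paics (Hspa9), Serpinb6a, Sdf4 and Hspa4 (Hspd1), Isoc1, Ctns and Eif5b (Hsp90ab1) and Pigt, Cep57 and Bloc1s1 (Hsf1), all at 0.073 or less.

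Among the members themselves the closest pair was Hsp90ab1 and Hspd1 (RMS 0.13), and the closest pair of inducible members was Hsp90aa1 and Hsph1 (0.24). Hspa1b stood at 1.3 or more from every other member, and at 1.7 from Dnajb1 and 1.9 from Hspa8. Hspd1, the chaperonin barrel of mitochondria, and Hspa9 differed by 0.21. These distances are descriptions over 10 groups that share libraries and controls.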

How the data were processed

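RNA sequencing counts were analysed for 65 libraries in 10 groups, read from their labels. The values deposited are counts per gene as whole numbers without scaling. The authors made them with kallisto 0.46.0 and a rat Ensembl transcriptome, summed transcripts to Entrez genes with tximport and removed genes low in all samples. Reads that match near-identical genes are divided between those genes by such an assignment, which bears on Hspa1b and Hspa8. Symbols came from RefSeq (GRCr8), and 14009 of 14554 identifiers matched. Column names give the group but no replicate number, and library numbers are names only.

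The filter, a count of 10 or more in any library, removed no gene. Counts were scaled with TMM and fitted with edgeR 4.0.16 (glmQLFit, glmQLFTest, R 4.3.3) in 1 model of 10 groups with 19 contrasts, at a Benjamini-Hochberg FDR below 0.01. Standard errors are the log2 fold change over the square root of F. The script was tested on simulated data with 200 changed genes of 14554. A case with most genes changed, as in Dox at 24 hours (81.4% called), was not simulated. Totals ran from 14332827 to 25738297. The part of sampling error in the spread between cultures was not estimated for each gene. It weighs more at low counts, such as those of Hspa1b in DMSO2 at 24 hours (147 to 201). Alternatives were DESeq2 1.42.0, its size factors, library size only, compared groups only, 2 other filters, 2 other thresholds and leaving out each library. The members and lists were chosen with earlier results of these data known. Named genes are the members, genes of lists of up to 14, at most the 2 largest changes each way among co-chaperones, and the 3 genes most like each member. Some genes that this rule covers are not reported here.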

Additional observations from a re-analysis of the deposited data

Results flagged for a closer look

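In 11 of 90 sets of libraries (9 members in 10 groups) the lowest or highest library lay apart from its group by Dixon's test, which chance gives in about 1 in 20 sets. For Hspa1b these were library 7 of Dox at 6 hours (96.3 CPM) and at 24 hours (359 CPM), both low, and library 1 of DMSO1 at 24 hours (12.7 CPM), high. Low libraries were also library 4 of Dox at 6 hours for Hsp90ab1 (1970 CPM) and library 2 of Ace at 24 hours for Hsph1 (49.5 CPM). High ones were library 3 of DMSO2 at 6 hours for Hsp90aa1 (571 CPM), library 2 of 5FU at 24 hours for Hsph1 (83.2 CPM), library 7 of Ace at 24 hours for Dnajb1 (85.3 CPM) and library 1 of 5FU at 6 hours for Hspd1 (485 CPM). Hspa9 was high in library 4 of DMSO2 (509 CPM) and in library 4 of Dox (356 CPM), both at 24 hours. Library numbers do not link groups, and no library lay apart in more than 1 member. Library 1 of 5FU at 6 hours was also the highest of its group for Hspa8, Hspa9, Hspa1b, Hsph1 and Dnajb1.

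The effect of a drug differed between 24 and 6 hours, by edgeR's interaction term, for 4 members in 5FU and 6 in Dox. In 5FU the log2 effect at 24 minus that at 6 hours was 1.1 for Hspa1b, 1.05 for Hsp90aa1, 1.01 for Hsph1 and -0.24 for Hsp90ab1, and Hsp90aa1 and Hsph1 were lower than the control at 6 and higher at 24 hours. In Dox it was 3.02 for Hspa1b, 1.01 for Hsph1, 0.75 for Dnajb1, -0.35 for Hsp90ab1, -0.77 for Hspa9 and -1.12 for Hspa8, and Dnajb1 and Hspa9 changed sides.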

How the results depend on the processing

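No paired analysis was possible because the columns carry no replicate numbers. Of 94 calls of members over 19 comparisons, 92 held with DESeq2's Wald test and with its size factors, 83 with scaling by library size only, 89 in fits of the compared groups only, 94 with either other filter and 90 without the libraries that lay apart (chosen after seeing the data), and no call changed direction under any of these. Of 1613 such calls in fits without 1 library, 56 were lost and none changed direction. By number of members called, library size only gave 5 in Dox at 6 hours and 1 for the Ace interaction. It also gave 6 in Ace at 24 hours and 4 in 5FU at 6 hours. With the compared groups only, 1 passed for the Ace interaction and 4 for Ace minus 5FU at 24 hours. Leaving out the libraries apart gave the same 1 and 4. An FDR below 0.1 gave 4 in Ace at 6 hours, 2 for the Ace interaction and 4 for Ace minus 5FU at 24 hours. With a log2 fold change of at least 1 as well, 24 of the 94 calls held: 0 in 5FU at 6 hours, 1 in 5FU at 24 hours, 0 and 1 in Ace, 2 and 4 in Dox, 0 between the controls at 6 hours, 1 with time in each control, 3 each for the 5FU and the Dox interaction, 0 for the Ace interaction, 1 and 3 for Dox minus Ace, 3 and 1 for Dox minus 5FU, and 0 and 0 for Ace minus 5FU. Without 1 library the counts were 4 to 5 in 5FU at 6 hours, 4 to 6 for DMSO2 with time, 3 to 5 for the 5FU interaction, 4 to 8 for Dox minus 5FU at 6 hours, and 2 to 3 for Ace minus 5FU at 24 hours. The direction of some values that were not called changed. With library size only these were Hspd1 in Ace at 24 hours (0.0253), Hsf1 (-0.0228) and Hspa9 (-0.0335) between the controls at 6 hours, Hsf1 (0.0083) and Hsph1 (0.0009) at 24 hours, Hsf1 in the 5FU interaction (0.0318), Hspa8 (0.0514), Hsp90ab1 (0.074) and Dnajb1 (0.0419) in the Ace interaction, Hspd1 in the Dox interaction (0.0962) and in Dox minus 5FU at 24 hours (0.031, and 0.0169 with DESeq2), and Hspa9 in Ace minus 5FU at 6 hours (0.0062). In a fit of the compared groups only it was Hsp90ab1 in Dox minus 5FU at 24 hours (-0.0093). Without the libraries apart these were Hspd1 in 5FU at 6 hours (-0.0015), Hspa1b (-0.0714) and Dnajb1 (-0.0041) between the controls at 24 hours, Hsp90ab1 in the Ace interaction (0.0048), Hsp90aa1 in the Dox interaction (-0.11) and Hspa9 in Ace minus 5FU at 6 hours (0.0287). Without 1 library, values not called crossed 0 for Hsf1 in the 5FU interaction (-0.0828 to 0.0034), Hspa9 there (-0.0159 to 0.0886), Hsp90ab1 (-0.0227 to 0.0745) and Hspd1 (-0.0477 to 0.0079) in Dox minus 5FU at 24 hours, Hspa9 in Ace minus 5FU at 6 hours (-0.0781 to 0.0371), Hspa8 in the Ace interaction (-0.0767 to 0.0033), Hsf1 (-0.081 to 0.0101) and Hsph1 (-0.0437 to 0.0037) in Ace at 6 hours, Hspa1b (-0.0506 to 0.11), Dnajb1 (-0.0087 to 0.0446) and Hspd1 (-0.0134 to 0.0283) between the controls at 24 hours, Hsf1 (-0.0605 to 0.0142) and Hsp90ab1 (-0.0377 to 0.0078) in DMSO2 with time, and Hsp90aa1 in the Dox interaction (-0.0399 to 0.0598). Scaling by library size only set the median of all genes at -0.15 in Dox at 6 hours, 0.266 in the Dox interaction and -0.108 in Dox minus Ace at 6 hours. The cause of these changes was not tested.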
